A study of Homo sapiens with 4 samples.

Results

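Promoter histone marks were examined at 7 genes of skeletal muscle, namely the 4 myogenic regulatory factors MYOD1, MYF5, MYF6 and MYOG, their cofactor MEF2C, and the muscle products DES (desmin) and CKM (muscle creatine kinase). The rows were taken by gene symbol from a promoter table of 20242 genes, and each symbol matched 1 row. H3K27me3 and H3K4me3 were measured by ChIP-seq in JMJD3c-hESCs, which were made from SEES-3 human embryonic stem cells. Both the untreated (−Dox) and the treated (+Dox) cells carried a reverse Tet-transactivator and a piggyBac construct in which a Tet-responsive element drove JMJD3c, the catalytic portion of the H3K27 demethylase JMJD3 with an HA tag and a nuclear localization signal, followed by IRES-βgeo. The +Dox cells received 1 µg/ml doxycycline (Dox) and were taken on day 3, and there was 1 library for each mark and condition, 4 in all. The cells were a stably transfected line, and the effects of doxycycline itself and of JMJD3c cannot be told apart in these libraries. MYOD1 was not supplied to these cells, so the values describe promoters of untreated and Dox-treated JMJD3c-hESCs. The paper reports that treated cells changed in morphology, had less SSEA-4 and alkaline phosphatase activity, and raised mesoendodermal genes. A change of cell state and demethylation by JMJD3c therefore cannot be told apart in these libraries.

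The myogenic regulatory factors are basic helix-loop-helix proteins that pair with E-proteins and bind E-box sequences in the control regions of muscle genes. MYF5 and MYOD1 commit precursors to the muscle fate, whereas MYOG drives the terminal step and MEF2 proteins act beside them. H3K27me3 is written by Polycomb repressive complex 2 and marks silent developmental genes, H3K4me3 marks promoters that are active or ready for use, and promoters with both marks in stem cells are called bivalent.

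A deposited value is the read coverage from 3 kb before to 3 kb after a transcription start, summed and scaled to the size of the library. The values moved in fixed steps, and from the steps the libraries held approximately 2629350 to 3509240 reads, with 1 read worth 0.992 to 1.29 units. A value of 20, above which a promoter was called marked, therefore stood on only about 15.5 to 20.2 reads. The H3K27me3 +Dox and H3K4me3 +Dox libraries had the same step (0.372844) and so the same inferred depth, although they are separate libraries. Whether this step reflects the size of each library was not tested. The inferred depth, the +Dox/−Dox ratios and their intervals depend on this. The read counts use the step only as the unit of the values. With 1 library a group there was no test. The 95% intervals given with values (exact Poisson) and with +Dox/−Dox ratios (from the exact Clopper-Pearson interval on the +Dox share of reads) cover counting error only, and they compare 2 libraries, not 2 conditions. Among 8 pluripotency genes used to check the cells, 7 had H3K4me3 above 20 in both conditions (63.7% of all promoters were above 20 in −Dox). None had H3K27me3 above 20 in either condition, and few promoters did (11.0% of all in −Dox and 6.73% in +Dox). The exception in H3K4me3 was POU5F1 (5.41 and 3.73), whose start in the table lies 10049 bp from the canonical start. LIN28A had the highest H3K27me3 of these genes in −Dox (12.9) and was lower in H3K4me3 in +Dox (139 to 105, ratio 0.752, 0.561 to 0.989), though not with the same total. The median H3K27me3 value over all promoters was 6.09 in −Dox and 5.97 in +Dox, and the medians for H3K4me3 were 41.3 and 38.8.

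The 7 windows lay at separate places in the genome (build hg19, GRCh37). MYF6 (ENSG00000111046, + strand, window chr12:81098413-81104413) and MYF5 (ENSG00000111049, + strand, window chr12:81107691-81113691) are neighbours whose starts were 9278 bp apart, and 3277 bp separated their windows, so they shared no part of a window. MYOD1 (ENSG00000129152) was read over chr11:17738118-17744118 on the + strand. The windows of these 3 genes and of MYOG (ENSG00000122180, − strand, chr1:203052140-203058140) held the whole transcript with all 3 exons. The windows of CKM (ENSG00000104879, − strand, chr19:45823133-45829133), DES (ENSG00000175084, + strand, chr2:220280099-220286099) and MEF2C (ENSG00000081189, − strand, chr5:88196870-88202870) held 1 of 8, 6 of 9 and 1 of 12 exons. The MEF2C transcript in the table starts 20869 bp from the canonical start of that gene, so the canonical MEF2C promoter was not read, although 1 of the 7 RefSeq starts of MEF2C lies 52 bp from the start that was used.

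The 250 bases before the start are shown for 4 genes, because these are the 2 members with the lowest H3K27me3 ratios (MYF6 and CKM) and the 2 other regulators with a matching entry. They are RefSeq sequences (GRCh38.p14) that match GRCh37 exactly, read 5′ to 3′ on the strand of the gene: chr12:80707384-80707633 for MYF6, chr12:80716662-80716911 for MYF5, chr1:203086013-203086262 for MYOG and chr19:45322876-45323125 for CKM. Capitals mark E-boxes (CANNTG) and TATAA, searched on both strands.
MYF6: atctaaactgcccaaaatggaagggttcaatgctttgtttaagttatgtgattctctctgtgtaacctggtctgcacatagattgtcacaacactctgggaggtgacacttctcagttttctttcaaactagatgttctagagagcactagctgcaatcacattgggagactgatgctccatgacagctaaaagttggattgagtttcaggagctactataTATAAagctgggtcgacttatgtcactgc
MYF5: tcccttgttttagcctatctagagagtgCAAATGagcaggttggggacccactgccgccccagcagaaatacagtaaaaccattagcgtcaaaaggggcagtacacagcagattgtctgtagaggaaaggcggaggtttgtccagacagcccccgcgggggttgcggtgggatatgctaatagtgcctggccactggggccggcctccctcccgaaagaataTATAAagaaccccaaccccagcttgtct
MYOG: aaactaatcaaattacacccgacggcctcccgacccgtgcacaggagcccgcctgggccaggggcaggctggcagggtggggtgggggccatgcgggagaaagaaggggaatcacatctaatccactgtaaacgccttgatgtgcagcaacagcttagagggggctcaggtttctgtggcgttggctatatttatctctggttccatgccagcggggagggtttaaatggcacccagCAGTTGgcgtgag
CKM: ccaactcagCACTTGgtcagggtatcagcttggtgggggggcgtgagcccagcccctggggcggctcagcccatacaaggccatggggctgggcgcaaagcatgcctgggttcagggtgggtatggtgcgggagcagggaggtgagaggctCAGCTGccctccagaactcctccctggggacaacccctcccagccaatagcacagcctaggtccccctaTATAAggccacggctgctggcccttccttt

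The MYF6 stretch had TATAA at −29 and no E-box, and MYF5 had TATAA at −28 and the E-box CAAATG at −222, both counted to the first base of the match. CKM had TATAA at −30 with the E-boxes CAGCTG at −99 and CACTTG at −241, and MYOG had the E-box CAGTTG at −13 and no TATAA. Over 35116 RefSeq promoters of the same length, 61.8% held an E-box, 14.0% held CAGCTG and 18.9% held TATAA. The 4 stretches held few CpG or close to the usual number, with 1 CpG before MYF6, 5 before CKM, 8 before MYF5 and 10 before MYOG, against a median of 11. Over whole windows the members also differed in CpG content. MYOD1 was the CpG-rich member, with 297 CpG in its window and an observed to expected CpG ratio of 0.605, higher than 86.3% of the 18244 windows that could be placed. MYF6 had 117 CpG and a ratio of 0.407, close to the median ratio of 0.439, and MYF5, CKM and DES lay just lower at 0.343 to 0.367. The windows of MYOG (0.233) and MEF2C (0.225) were the poorest in CpG of the 7.

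Before induction, 2 of the 7 promoters, MYOD1 and MYF6, were bivalent, with both marks above 20, and the other 5 were unmarked. Over all promoters, 1907 (9.42%) were bivalent, 10980 (54.2%) carried H3K4me3 without H3K27me3 and 7036 (34.8%) were unmarked. The H3K4me3 values behind both bivalent calls were close to the threshold, and with a threshold of 30 no member was bivalent. In +Dox, MYOD1 remained bivalent and MYF6 had H3K4me3 only. These calls were close to the threshold too, since the interval on H3K4me3 at MYOD1 (11.8 to 33.5) and that on H3K27me3 at MYF6 (5.22 to 21.7) included 20, and scaling over low promoters put H3K4me3 at MYOD1 just below 20.

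MYOD1 had the highest H3K27me3 value of the members in both conditions. It read 91.3 in −Dox (approximately 71 reads, 95% interval 71.1 to 115) and 88.0 in +Dox (69 reads, 68.1 to 111). These values exceeded those of 97.9% and 98.5% of promoters, and the 2 intervals overlapped over most of their length. The ratio was 0.964 (0.680 to 1.36), so a change was not detectable at this depth, and a change to below 0.680 of the −Dox value lies outside the interval. H3K4me3 at MYOD1 read 29.4 in −Dox (30 reads) and 21.3 in +Dox (16 reads), a ratio of 0.724 whose interval (0.353 to 1.31) included 1.

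MYF6, also called MRF4, encodes the regulator that is abundant in mature muscle. Its H3K27me3 value was 57.8 in −Dox (45 reads, interval 42.1 to 77.2) and 11.9 in +Dox (9 reads, 5.22 to 21.7), and the intervals did not overlap. The ratio was 0.206 (0.0850 to 0.410), a log2 difference of −2.28, and its interval did not overlap that of MYOD1. H3K4me3 at MYF6 read 26.8 in −Dox (27 reads) and 25.0 in +Dox (19 reads), with a ratio of 0.933 (0.481 to 1.71). The MYF6 promoter thus differed between the libraries in H3K27me3, with no detectable difference in H3K4me3.

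The 1907 bivalent promoters give the scale for these 2 genes. Their median H3K27me3 value was 43.0 in −Dox and 24.2 in +Dox, with a median log2 ratio of −0.81, and 919 of them (48.2%) had a ratio interval below 1. Within this class, 97 promoters (5.09%) had a lower H3K27me3 ratio than MYF6, whereas 1635 (85.7%) had a lower ratio than MYOD1. MYF6 thus lay near the low end of the bivalent promoters in H3K27me3 ratio, and MYOD1 in the upper part. For the H3K4me3 ratio they lay nearer the middle, with 1102 bivalent promoters (57.8%) lower than MYF6 and 482 (25.3%) lower than MYOD1. Of the class, 745 (39.1%) had H3K4me3 only in +Dox, as MYF6 did, and 973 (51.0%) stayed bivalent, as MYOD1 did.

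**Figure D1:**
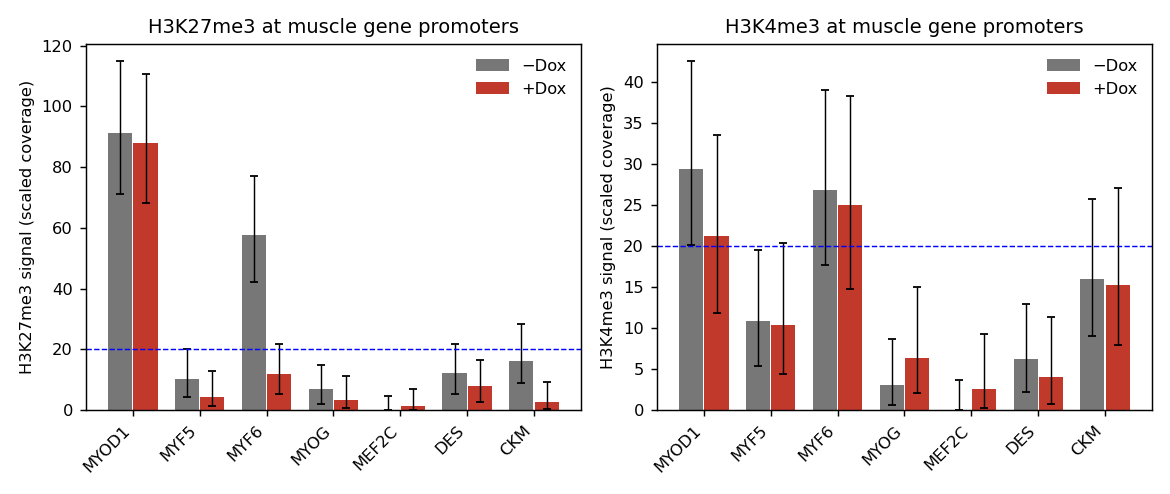
Signal (scaled coverage within 3 kb of the start) at each of the 7 muscle genes, H3K27me3 on the left and H3K4me3 on the right, 1 library per bar, with 95% exact Poisson intervals on approximate reads and a dashed line at 20. H3K27me3 at MYOD1 read 91.3 and 88.0, whereas MYF6 read 57.8 in −Dox and 11.9 in +Dox.

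MYF5, the earliest of the regulators to appear in the embryo, had little of either mark although it lies next to MYF6. H3K27me3 at MYF5 read 10.3 in −Dox (8 reads) and 4.47 in +Dox (4 reads), and H3K4me3 read 10.8 (11 reads) and 10.4 (8 reads). The H3K27me3 ratio of 0.436 (0.109 to 1.85) and the H3K4me3 ratio of 0.964 (0.330 to 2.58) both had intervals that included 1. In −Dox the H3K27me3 intervals of MYF6 and MYF5 did not overlap, whereas in +Dox they did.

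MYOG, which encodes myogenin, had few reads in every library. H3K27me3 at MYOG read 6.85 in −Dox (5 reads) and 3.36 in +Dox (3 reads), and H3K4me3 read 3.13 (3 reads) and 6.34 (5 reads). The H3K4me3 ratio of 2.02 was the highest of the members, but its interval ran from 0.422 to 14.0, and the H3K27me3 ratio of 0.490 had an interval of 0.0922 to 3.05. The MYOG window overlaps the window of ADORA1, an adenosine receptor gene that also had few reads (H3K27me3 4.94 and 5.22, H3K4me3 4.84 and 7.08).

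At the MEF2C start in the table, both marks were listed at 0 in −Dox, and the +Dox values were 1.49 for H3K27me3 (1 read) and 2.61 for H3K4me3 (2 reads). No ratio was formed because the −Dox values were 0, and all 4 values lay under that of 3 reads, which a count of 0 allows (2.98 to 3.87 units). Among all promoters, 433 were at 0 for both marks in −Dox.

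CKM supplies the creatine kinase of contracting muscle. Its H3K27me3 value was 16.4 in −Dox (13 reads, interval 8.87 to 28.5) and 2.61 in +Dox (2 reads, 0.307 to 9.16). The intervals on the levels overlapped slightly, and the interval on the ratio of 0.160 (0.0167 to 0.672) excluded 1. The value exceeded that of 86.8% of promoters in −Dox and 12.6% in +Dox, although it was under 20 in both. Of the 6424 unmarked promoters with a ratio, 103 (1.60%) had an H3K27me3 interval below 1, and CKM was 1 of these. A promoter with few −Dox reads cannot reach such an interval even when +Dox is 0. The median over all promoters was 4.75 reads in −Dox, against 13 at CKM, so this share does not show how unusual CKM is. H3K4me3 at CKM was 16.0 (16 reads) and 15.3 (12 reads), with a ratio of 0.958 (0.421 to 2.20).

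DES encodes the intermediate filament of muscle. It read 12.2 for H3K27me3 in −Dox (9 reads) and 7.83 in +Dox (6 reads), a ratio of 0.643 (0.193 to 2.07). H3K4me3 at DES was 6.27 (6 reads) and 4.10 (3 reads), a ratio of 0.654 (0.105 to 3.05). Neither mark differed detectably at this gene, whose H3K4me3 in +Dox rested on 3 reads.

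Ranked by H3K27me3 in −Dox, the members ran MYOD1, MYF6, CKM, DES, MYF5, MYOG and MEF2C, and MYF6 and CKM were the only neighbours whose intervals did not overlap. In +Dox the order was MYOD1, MYF6, DES, MYF5, MYOG, CKM and MEF2C, and only MYOD1 and MYF6 had separate intervals. For H3K4me3 MYOD1 led in −Dox and MYF6 in +Dox, and no neighbours in either order were separated. The regulators spanned the range of H3K27me3 among the members, with MYOD1 at the top and MYOG near the bottom.

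Across the 6 members with a ratio, H3K27me3 was below 1 in 6 of 6, against 56.6% of all promoters, and below 0.5 in 4 of 6 (MYF6, CKM, MYF5 and MYOG), against 21.5%. The ratio interval lay below 1 in 2 of 6 (MYF6 and CKM), against 6.92%, and no member had a ratio above 2 (14.7% of promoters) or an interval above 1 (1.43%). MYF6 was bivalent, a class in which 48.2% had an interval below 1. CKM had 13 reads in −Dox, against a median of 4.75 over all promoters. The 2 of 6 and the 6.92% therefore are not a like comparison. When both H3K27me3 libraries were scaled to the same total, MYOD1 alone passed 1, at 1.13 (0.800 to 1.60). The median log2 ratio of the members was −1.11, against −0.15 for all promoters. Among promoters with a mean of at least 10 over the 2 libraries, which keeps 3 members, the medians were −0.64 and −0.56, so the gap between the members and all promoters was small (−0.07) once promoters with few reads were left out, and it was −0.52 with a pseudocount of 5. For H3K4me3, 5 of 6 ratios were below 1, against 52.6% of promoters, the median log2 ratio was −0.08 against −0.03, and no member had an interval that excluded 1, against 2.86% of promoters with an interval below 1 and 1.63% above. The single member above 2 was MYOG (6.09% of promoters were above 2), and 0 of 6 lay below 0.5 (5.33%). Low ratios at MYF5 and MYOG rested on 8 reads or fewer per library, and their intervals included 1.

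**Figure D2:**
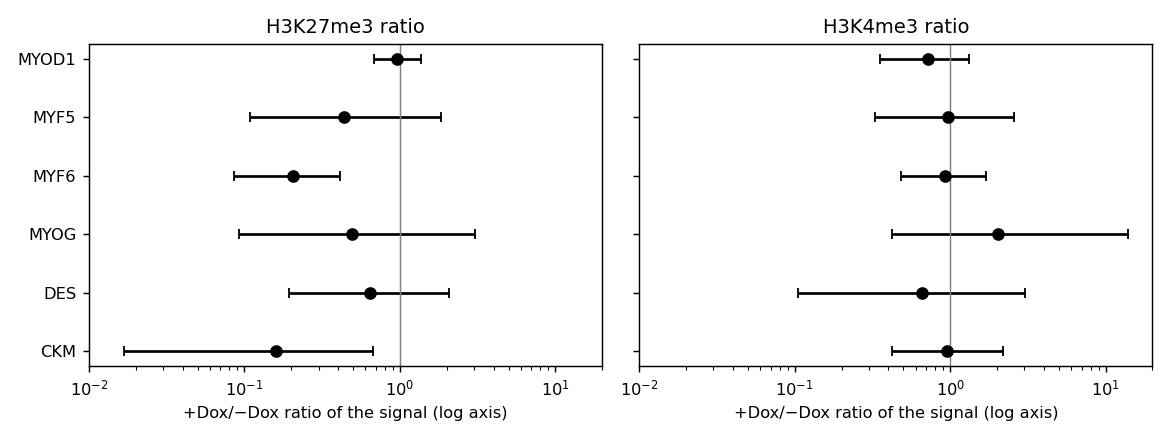
The +Dox/−Dox ratio of the signal for H3K27me3 (left) and H3K4me3 (right) at the 6 members with a ratio, on a log axis, with 95% intervals from counting error and a line at 1. Only MYF6 (0.206) and CKM (0.160) for H3K27me3 have intervals that lie wholly below 1.

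**Figure D3:**
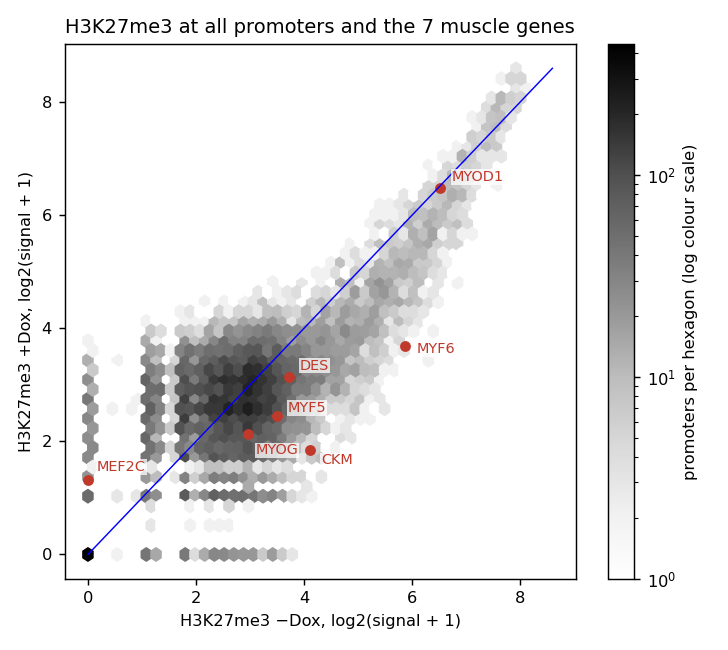
H3K27me3 in −Dox (x) and +Dox (y) as log2(signal + 1), with grey hexagons shaded by the number of promoters, red points for the 7 muscle genes and a line of equal values. MYOD1 lies on the line, MYF6 and CKM lie far below it, and MEF2C lies at 0 in −Dox.

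The other genes of the muscle programme were compared as lists. Of the 45 listed contractile and metabolic muscle genes, 44 were analysed and ACTN3 was not analysed here. In −Dox 29 of these 44 were unmarked (34.8% of all promoters) and 11 had H3K4me3 only (54.2% of all promoters). The starts of 5 of the 42 that could be placed (MB, MYL4, MYLPF, TNNC2 and TNNI1) lay more than 3 kb from the canonical start, so their windows were not centred on the canonical promoter. ACTA1, the skeletal actin, and CACNA1S, the calcium channel of the T-tubule, were bivalent (9.42% of all promoters). In addition, 2 genes had H3K27me3 only (ACTN2 and ACTC1), against 1.58% of all promoters. The median log2 ratio was −0.12 for H3K27me3 (0.11 when both libraries were scaled to the same total) and −0.13 for H3K4me3. With a minimum mean of 10 the H3K27me3 median was −0.78, lower than that of the members in that setting. H3K27me3 intervals lay below 1 at 3 of 44 (6.92% of all promoters), and above 1 at 1 of 44 (1.43% of all promoters). The 3 were among the 4 genes with H3K27me3 above 20 in −Dox, and 48.2% of bivalent promoters had an interval below 1. The median −Dox value of the list was 6.09, and promoters with few reads cannot reach such an interval. The share of 3 of 44 therefore does not show how the list compares with all promoters. The Z-disc gene ACTN2 went from 51.0 to 16.4 (0.322, 0.158 to 0.614), ACTA1 from 72.3 to 41.4 (0.573, 0.367 to 0.912) and CACNA1S from 23.6 to 8.58 (0.364, 0.136 to 0.965), and with the same total ACTN2 alone stayed below 1 while TNNT1 joined CHRNA1 above 1. The receptor subunit CHRNA1 was higher in +Dox on 1 read against 8 (6.37, 1.06 to 351). For H3K4me3, 3 of 44 lay below 1 (2.86% of all promoters), namely the cardiac actin ACTC1 (14.8 to 2.61), MYBPC2 (44.7 to 26.1, lost with the same total) and MYH8, at 6.55 on 7 reads in −Dox and listed at 0 in +Dox. MYH8 and the actins belong to families of similar sequence, so reads could be shared between copies.

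**Figure D4:**
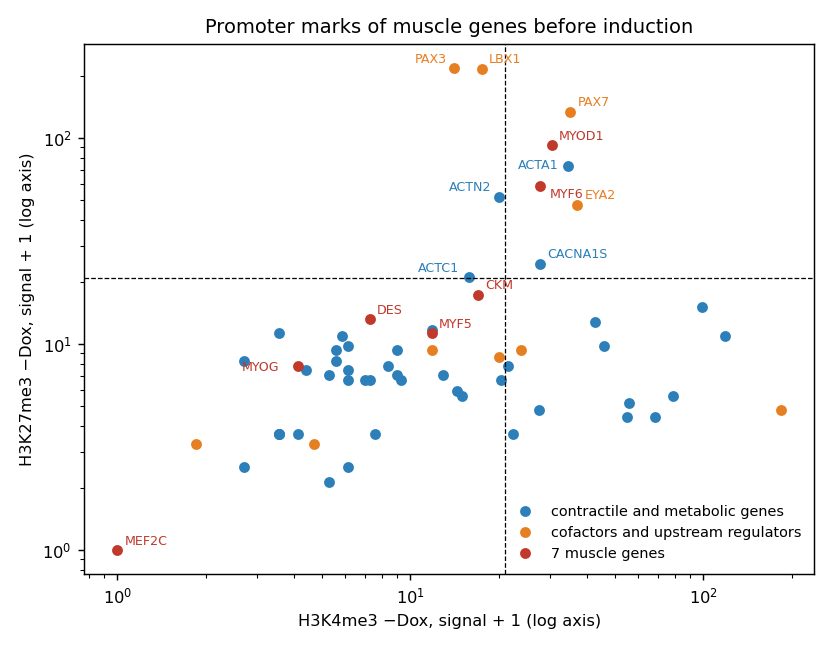
H3K4me3 (x) and H3K27me3 (y) in −Dox, as signal + 1 on log axes, for the 7 muscle genes (red), the 44 contractile and metabolic genes (blue) and 10 cofactors and upstream regulators (orange), with dashed lines at a signal of 20. MYOD1 and MYF6 sit in the upper right with PAX7, EYA2, ACTA1 and CACNA1S, whereas most contractile genes sit in the lower left.

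Of the 6 E-protein and MEF2 genes, which encode partners of the regulators, 4 had H3K4me3 above 20 in −Dox, near the 63.7% of all promoters. The other 2 were TCF4 (3.13 and 1.12), whose start in the table lies 47835 bp from the canonical start, and MEF2A (7.12 and 8.95). MEF2A could not be placed, so neither value can be read as that of the canonical promoter. None of the 6 had an interval that excluded 1 for either mark, except TCF12 for H3K4me3 when scaled over low promoters, and the highest H3K27me3 among them was at MEF2D (10.3 and 7.46). All 8 genes for basic helix-loop-helix inhibitors had H3K4me3 above 20 in −Dox (63.7% of all promoters), and 3 were bivalent (9.42% of all promoters). One of the 8, the bivalent MSC (musculin), was lower in H3K27me3 (68.5 to 37.7, ratio 0.550, 0.345 to 0.892), though not with the same total. Intervals below 1 were found at 6.92% of all promoters and 48.2% of bivalent ones, so 1 of 8 does not set this list apart. TWIST1, the highest in H3K27me3, read 115 and 86.1 (0.750, 0.537 to 1.04).

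Among 10 cofactors and upstream regulators of myogenesis, H3K27me3 intervals lay below 1 at 2, both bivalent in −Dox, against 6.92% of all promoters and 48.2% of bivalent ones. PAX7, the factor of muscle satellite cells, read 133 in −Dox and 36.5 in +Dox (0.274, 0.176 to 0.420), a ratio interval that overlapped that of MYF6. EYA2, a transcriptional coactivator, read 46.4 and 14.5 (0.313, 0.139 to 0.607). H3K4me3 was higher in +Dox at PAX7 (34.2 to 63.4, ratio 1.85, 1.19 to 2.99), and no member had an interval above 1. PAX3, which acts upstream of MYOD1 in the somite, had the highest H3K27me3 of the list, at 218 and 263 (1.21, 0.983 to 1.49), above 1 with the same total.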

How the data were processed

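Chromatin from JMJD3c-hESCs was immunoprecipitated for H3K27me3 or H3K4me3 and sequenced as 150-base single-end reads. The authors mapped the reads to hg19 with Bowtie2 (CASAVA 1.4 is named in the submitters' processing notes), dropped mitochondrial reads and deposited an ngs.plot signal, the scaled coverage within 3 kb of 1 transcription start per gene. Whether the scaling to the density downstream of transcription ends that the study describes was applied to these values is not stated, and no input library was used here.

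The deposited signal was divided by its step and by the number of data points that a read spans (3.37 to 3.48 by library) to give approximate reads, rounded for the intervals. Plain +Dox/−Dox ratios were formed where −Dox was above 0, and a +Dox value of 0 ranked lowest in medians. Because the reads carry no molecular identifiers, they need not be separate molecules, and the intervals leave this out. Transcripts were placed on GRCh37 by their identifiers (GENCODE release 44 lifted to GRCh37), which placed 18244 promoters (90.1%). RefSeq promoter sequences matched 5 of the 7 genes, and MYOD1 and DES had no entry. Python 3.11.15, numpy 2.4.6, pandas 2.3.3 and scipy 1.17.1 were used. The ratio intervals were tried only on simulated Poisson reads, which they assume, at promoters with a mean above 20. Those of CKM, DES, MYF5 and MYOG, with lower means, were therefore not tested. The text names all 7 members, up to 4 genes per list and mark whose ratio interval excluded 1, the gene of each list with the highest −Dox H3K27me3, and the 3 promoters nearest to each marked member. Some genes whose interval excluded 1 only after rescaling are also named. Libraries scaled to the same total or over low promoters, a pseudocount of 5, a minimum mean of 10, thresholds of 10 and 30, and 3 or 4 data points per read were tried as alternatives. Some listed cofactors and upstream regulators are not reported here. The members and lists were chosen with earlier results of these data known.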

Additional observations from a re-analysis of the deposited data

How the results depend on the processing

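No paired analysis was possible because the 4 groups hold a single library each, so none could be left out. Of 95 recomputed values for 20 results, 85 kept their side of the limit, stayed within their interval or, for counts, changed little or not at all, and 10 moved. For single genes, the minimum mean left ratio and interval unchanged by construction, and the data points per read could change only the interval. A wide interval, as for H3K4me3 at MYOG (0.422 to 14.0), also allows large shifts. The 85 therefore do not measure how robust the results are. The members with an H3K27me3 ratio below 0.5 numbered 4, but 2 with the same total, 2 with a pseudocount of 5 and 1 with a minimum mean of 10. When scaled over low promoters they numbered 3, which was not counted as moved. The 1 member with an H3K4me3 ratio above 2 was lost (0 members) when scaled over low promoters, with the pseudocount or with the minimum mean. The 2 bivalent members became 4 at a threshold of 10 and 0 at 30, and the members with H3K4me3 above the threshold went likewise from 2 to 4 and 0. The cause was not tested, except that the minimum mean leaves fewer members by construction. Scaling to the same total multiplies H3K27me3 +Dox values by 1.18 (a log2 shift of 0.23 over all promoters) and H3K4me3 by 1.03. The H3K27me3 intervals of MYF6 and CKM lay below 1 under both scalings and with 3 or 4 data points per read, and the CKM ratio of 0.160 was 0.356 with the pseudocount. A value of 20 rests on 15.5 to 20.2 reads, and DES, MYF5, MYOG and MEF2C had 9 reads or fewer for H3K27me3, so only large differences could be seen there.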

Other observations

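The promoters nearest to MYOD1 over the 4 libraries, by Euclidean distance of log2(value + 5), were SHISA7 (0.17), SIDT1 (0.24) and CDKN2A (0.27), and those nearest to MYF6 were FAM26F (0.32), ANGPTL4 (0.38) and GPR83 (0.41). Of 11 relatives of CKM and DES analysed (creatine kinases and intermediate filament genes), VIM (vimentin) was lower in H3K27me3, at 31.6 and 10.8 (ratio 0.343, 0.146 to 0.789). The neuronal filament gene PRPH had the highest H3K27me3 of these in −Dox and read 67.7 and 73.1 (1.08, 0.733 to 1.60). In H3K4me3, the neuronal filament gene INA was lower, at 77.2 and 42.9 (0.555, 0.355 to 0.837), and SYNM (synemin, which pairs with desmin) was higher, at 3.99 and 13.8 (3.46, 1.06 to 15.4), an interval that included 1 after scaling over low promoters. The deposited start of SYNM lies 6866 bp from the canonical start. CKMT1A and CKMT1B, near-identical copies, were listed at 0 in every library. With the same total, INA had an H3K27me3 interval above 1. Over all promoters, intervals lay below 1 at 6.92% for H3K27me3 and 2.86% for H3K4me3, and above 1 at 1.43% and 1.63%. Over promoters bivalent in −Dox, a class that held VIM, the H3K27me3 share below 1 was 48.2%. Among 6 endoderm and mesoderm genes, 4 were bivalent in −Dox. FOXA2, 1 of these 4, was lower in H3K27me3, at 114 and 26.8 (0.236, 0.138 to 0.379). SOX17 was lower in H3K4me3, at 29.4 and 5.59 (0.191, 0.0444 to 0.492), while its H3K27me3, the highest of the list in −Dox, read 185 and 195 (1.05, 0.837 to 1.34). With the same total, the intervals of GATA6 in H3K27me3 and of FOXA2 in H3K4me3 lay above 1.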
